A study of Mus musculus with 11 samples.

Results

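Arterial endothelial cells, the cells that line the inside of the brain's arteries and arterioles, made up 2395 of the 132437 cells that passed the filters, out of 155804 barcodes in all. A filtered cell had more than 500 genes, more than 1000 UMIs (unique molecular identifiers, 1 for each captured RNA molecule) and less than 25% mitochondrial UMIs. An endothelial cell carried a UMI of at least 4 of the 6 genes Cldn5, Flt1, Pecam1, Cdh5, Ly6c1 and Slco1a4 and of fewer than 2 of 8 markers of other cells (Kcnj8, Abcc9, Myh11, P2ry12, Tmem119, Mog, Aqp4, Kcnj13), which left 20730 cells. An arterial cell carried in addition a UMI of at least 2 of the 4 arterial markers Gkn3, Sema3g, Vegfc and Bmx, no UMI of the venous marker Ackr1 and UMIs of fewer than 3 of 6 markers of fenestrated vessels (Plvap, Esm1, Igfbp3, Cd300lg, Col13a1, Gpihbp1). Members were thus chosen by their UMI counts of these genes. The 25 genes that the selection read (Lrg1 not among them) are given as a description and entered no test.

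Single-cell RNA-seq was done on the right brain of mice, with 1 library for each mouse and 4 groups. Wild-type (WT) C57BL/6 mice and Lrg1-/- mice went through a sham operation or MCAO/R, in which the middle cerebral artery is blocked for a time and then reopened. The Lrg1-/- line was a conventional knockout in C57BL/6N that lacks Lrg1 in every cell, with the stretch from exon 1 to the stop codon in exon 2 removed. It came from another supplier than the WT mice, so genotype, supplier, age and library handling cannot be told apart. Replicates 1, 2 and 3 made up the sham + WT group, replicates 1 and 2 the MCAO/R + WT group, and replicates 1, 2 and 5 each of the 2 Lrg1-/- groups. The labels give neither the age of the mice nor the time of reperfusion. By the study's methods the Lrg1-/- mice were older than the WT mice. The arterial cells numbered 308, 256 and 388 in sham + WT, 276 and 272 in MCAO/R + WT, 159, 153 and 49 in sham + Lrg1-/-, and 54, 346 and 134 in MCAO/R + Lrg1-/-.

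Arteries carry blood into the brain under pressure, and their endothelium differs from that of capillaries and veins along a gradient. Notch signalling with its ligands Dll4 and Jag1, the transcription factors Hey1 and Sox17 and the surface ligand Efnb2 define the arterial state, gap junctions of Gja4 and Gja5 pass signals along the vessel wall, and elastic fibres of Eln and Fbln5 give it recoil. Capillary endothelium carries most of the transporters of the blood-brain barrier. Lrg1 encodes a secreted glycoprotein known to modify TGF-beta signalling in endothelium.

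The library totals ran from 37159497 to 171813031 UMIs, and the arterial cells contributed 595619 to 4978376 UMIs in each library, so the smallest sums, those of sham + Lrg1-/- replicate 5 (49 cells) and MCAO/R + Lrg1-/- replicates 1 and 5, carry the largest counting error. The median arterial cell held 5466 to 16099 UMIs, and no 2 libraries shared the barcode of an arterial cell. The bar on cells with 2 or more other-cell markers removed 32.3% to 39.7% of the cells with endothelial genes in WT libraries and 32.7% to 78.0% in Lrg1-/- libraries. The 6 haemoglobin genes, RNA of red blood cells, made up 0.0124% to 0.128% of the arterial UMIs in WT libraries and 1.69% to 3.39% in Lrg1-/- libraries. The 8 choroid plexus genes made up 0.0288% to 0.0616% in sham + WT, 0.663% and 0.0182% in the 2 MCAO/R + WT libraries, and 0.455% to 1.26% in Lrg1-/- libraries. The 6 neutrophil markers stayed at or below 0.00369% except in MCAO/R + Lrg1-/- replicates 2 and 5 (0.102% and 0.196%), and 8 microglia markers made up 0.0602% to 0.0855% in sham + WT, 0.0844% and 0.0985% in MCAO/R + WT, 0.113% to 0.131% in sham + Lrg1-/- and 0.0714% to 0.408% in MCAO/R + Lrg1-/-. The 9 oligodendrocyte genes made up 0.12% to 0.191% in sham + WT, 0.424% and 0.627% in MCAO/R + WT, 0.111% to 0.249% in sham + Lrg1-/- and 0.2004% to 0.552% in MCAO/R + Lrg1-/-. The 9 smooth muscle markers, those of the cells that wrap arteries, made up 0.0172% to 0.0725% in sham + WT, 0.0299% and 0.0577% in MCAO/R + WT, 0.0935% to 0.155% in sham + Lrg1-/- and 0.0112% to 0.0787% in MCAO/R + Lrg1-/-. Pericyte, fibroblast, astrocyte and neuroblast markers stayed at or below 0.0601%, and no marker of any of these lists was at 0 in all libraries. Their part in the results was not tested, and a gene whose level in microglia-gated cells of the same libraries (cells with P2ry12, Tmem119 and Cx3cr1 and no UMI of Cldn5, Flt1, Pecam1 or Cdh5) was above that in arterial cells, in the group where the gene was higher, is named as such.

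The arterial label held against 15 arterial identity genes that the selection did not read. In CPM (counts of a gene per 1000000 of the UMIs summed over cells), all 15 were higher in arterial than in capillary cells (endothelial cells with none of the 4 arterial markers, 12532 cells) of the same library in at least 9 of 11 libraries, and 11 of the 15 in all 11. Mgp, a matrix protein that holds back calcification and BMP signalling, had a median of 959 CPM in arterial and 73.6 CPM in capillary cells, with a median ratio of 12.7 within libraries. Fbln5, an elastic fibre protein, reached a ratio of 13.2, the tubulin regulator Stmn2 10.1 (213 against 22.8 CPM), the phosphatase Alpl 7.37 (243 against 34.2 CPM), the connexin Gja4 7.18, Eln 6.04, Hey1 5.23 and Efnb2 4.05. Dll4 and Jag1 were less separated, with ratios of 2.26 and 2.62, and Clu least, at 1.28, with a median over libraries that was lower in arterial (105 CPM) than in capillary cells (148 CPM).

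Capillary and venous genes split. The capillary carbonic anhydrase Car4 (85.1 CPM in arterial and 433 CPM in capillary cells) and the monocarboxylate transporter Slc16a1 were lower in arterial cells in 11 of 11 libraries and the transferrin receptor Tfrc in 10, whereas Mfsd2a, Rgcc and Spock2 had ratios of 1.33, 0.941 and 1.12. The venous genes Nr2f2, Slc38a5 and Il1r1 were lower in arterial cells in 11 of 11 libraries, whereas Vwf and Vcam1, which large vessels of both kinds express, were higher in 11 of 11, with ratios of 1.49 and 1.84. These values are a description, since the selection made the classes. Among genes outside these identity lists and the lists of other cells, named after their values were seen, the largest median ratios at 50 CPM or more in arterial cells and higher there in 11 of 11 libraries were those of the long non-coding RNA Mannr (34.2), the matrix gene Fbln2 (17.2), Egfl8 (13.5), the BMP-responsive membrane protein Tmem100 (10.6), the laminin chain Lama3 (9.41), Emp1 (7.81) and the cadherin Cdh13 (7.40). On the capillary side Grik2 (6.32-fold lower in arterial cells), Ctnna2 (5.70), Cd74 (5.35) and Il1rapl1 (5.13) came first, each in 11 of 11 libraries. The capillary gene Car4 ranked 11 there (3.94). For the other genes named on this side, RNA of other cells and the cells' own RNA were not separated. They are therefore not shown to be genes of capillary endothelium. The part of the genes of either side in the class comparisons was not tested.

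**Figure D1:**
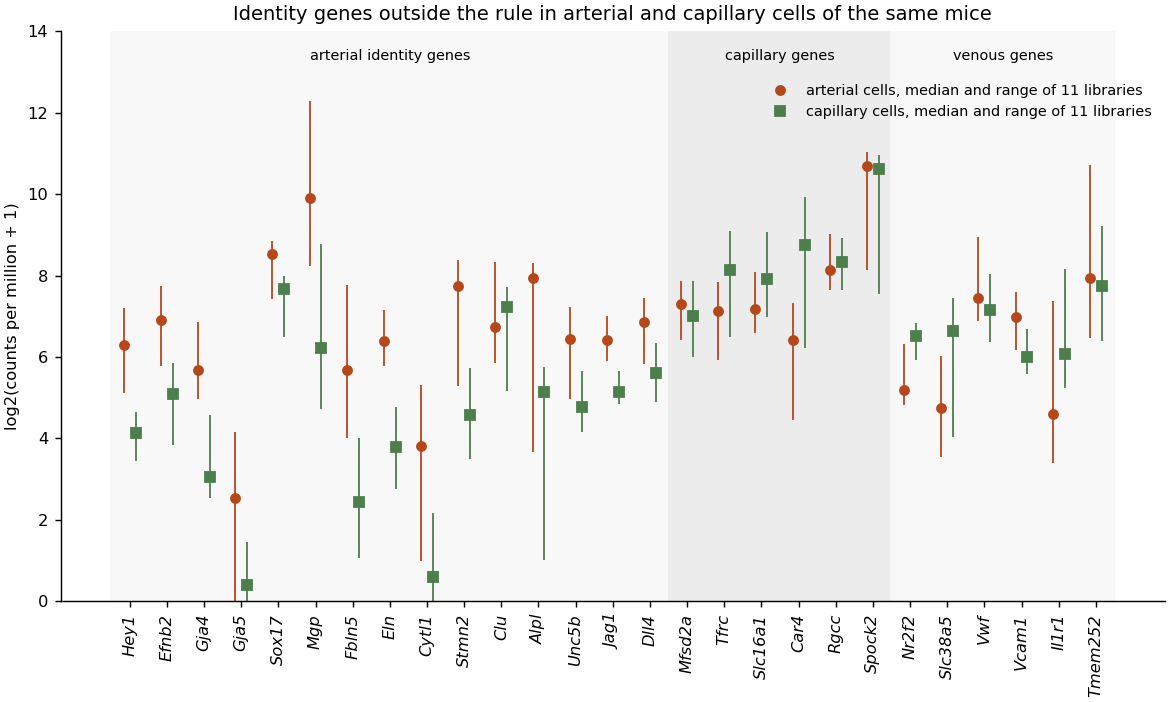
Levels of identity genes that the selection did not read, as log2(CPM + 1), in arterial cells (circles) and capillary cells (squares), with the median and the lowest and highest of 11 libraries. The medians of all arterial genes but Clu sit higher in arterial cells, those of Car4, Slc16a1, Nr2f2, Slc38a5 and Il1r1 sit lower, and those of Spock2, Rgcc and Mfsd2a lie close together.

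Of the 2395 arterial cells, 1198 carried exactly 2 of the 4 markers (50.02%), 692 carried 3 and 505 carried all 4. Cells just inside and just outside the threshold were graded. Depth was graded too, and a shallow cell shows fewer markers. In sham + WT replicate 1 the median arterial cell held 8314 UMIs, the median cell with 1 marker 5963.5 and that with none 3422. The same order held in every library, so shallow arterial cells among those with fewer markers were not separated. The makeup of the sets differed, since 655 of the 1198 cells with exactly 2 markers and 111 of the 505 with all 4 came from MCAO/R libraries, so levels are given within libraries. Mgp had a median of 374 CPM over libraries in cells with exactly 2 markers (77.0 to 3267), 125 CPM in cells with exactly 1 (3465 cells; 17.2 to 1456) and 73.6 CPM in cells with none (25.4 to 439), and it fell in this order in 9 of 11 libraries. Alpl had medians of 156, 62.2 and 34.2 CPM and fell in this order in 11 of 11, and Hey1 had medians of 54.9, 32.6 and 16.5 CPM and did so in 9 of 11. Car4 went the other way, with medians of 138, 328 and 433 CPM, in 8 of 11.

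The makeup of the marker set differed between operations. Gkn3, a stomach-type secreted protein that marks brain arteries, was detected in 73.6% of arterial cells in sham + WT and 75.1% in sham + Lrg1-/-. After MCAO/R the share was 18.4% in WT and 33.5% in Lrg1-/-. The lymphangiogenic ligand Vegfc went from 74.2% and 75.6% to 56.2% and 58.2%, while the semaphorin Sema3g (75.9% and 69.3% against 92.3% and 83.1%) and the kinase Bmx (67.0% and 63.2% against 82.8% and 74.7%) were detected in a larger share after MCAO/R over each group's cells. In single libraries Sema3g stood at 67.2% in MCAO/R + Lrg1-/- replicate 5, below the 67.9% to 71.4% of sham + Lrg1-/-. Since a cell needs 2 of the 4 markers, the rule itself ties these shares to each other. In microglia-gated cells, which should lack these genes, Gkn3 was detected in 0.147% to 5.74% of cells, Sema3g in 0.321% to 2.81%, Vegfc in 0.437% to 1.76% and Bmx in at most 1.75%, at median depths of 4498 to 9906 UMIs. As a level, Gkn3 held 724, 652 and 579 CPM in sham + WT and 22.9 and 56.7 CPM in MCAO/R + WT, and Vegfc 304, 365 and 336 CPM against 87.2 and 101 CPM. The pair Sema3g and Bmx without the other markers made up 206 of 548 cells in MCAO/R + WT and 65 of 952 in sham + WT.

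Because of this, the share of arterial cells is a share of cells that still showed the markers. It was 12.9%, 14.2% and 15.9% of gated endothelial cells in sham + WT, 9.51% and 10.03% in MCAO/R + WT, 16.2%, 20.1% and 13.2% in sham + Lrg1-/-, and 12.9%, 7.91% and 8.48% in MCAO/R + Lrg1-/-. Cells with endothelial genes and at least 2000 UMIs were also thinned to 2000 and the rule was applied again. This left out 39 to 552 shallower endothelial cells in each library. The shares were then 7.34%, 8.66% and 8.77%, then 3.25% and 4.34%, then 7.95%, 10.7% and 5.35%, then 4.81%, 4.10% and 4.60%. The thinned shares of the MCAO/R libraries lay below those of the sham libraries in both genotypes, but fewer arterial cells and fewer UMIs of Gkn3 and Vegfc in each cell cannot be told apart.

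**Figure D2:**
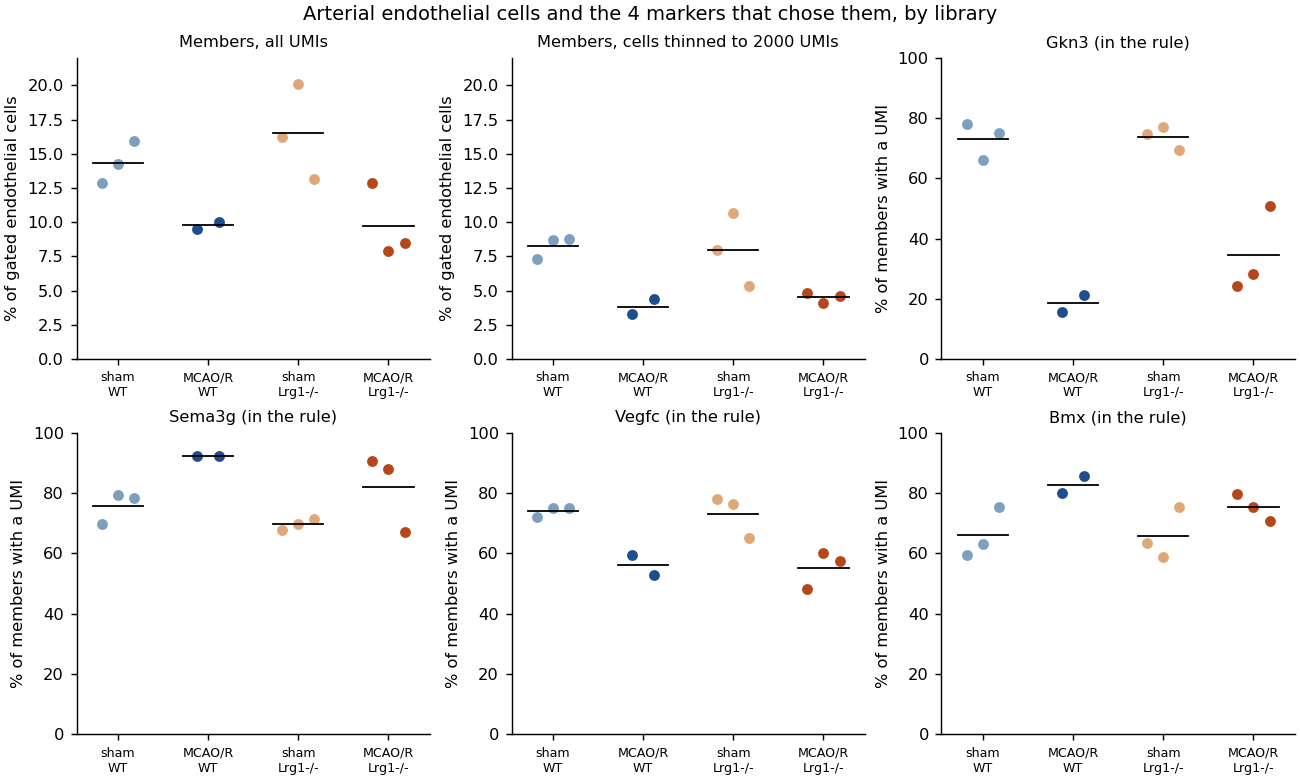
Share of gated endothelial cells that met the arterial rule (first 2 panels, in %, with all UMIs and after thinning cells of at least 2000 UMIs to 2000) and share of arterial cells with a UMI of each of the 4 markers (last 4 panels, in %), 1 point per library in 4 groups, lines at group means. Gkn3 and Vegfc were detected in a smaller share of cells after MCAO/R in both genotypes. Sema3g and Bmx were detected in a larger share in WT and overlapped between operations in Lrg1-/- mice.

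The response to MCAO/R in WT mice was measured on UMIs summed over the arterial cells of each mouse. Of 12572 genes tested, 576 rose (4.58%) and 630 fell (5.01%), 9.59% in all, with a median log2 fold change over all genes of -0.01. Without MCAO/R + WT replicate 2 the balance turned to 463 higher and 328 lower. The oligodendrocyte genes moved with it, since their summed share was higher in both MCAO/R + WT libraries (0.424% and 0.627%) than in every sham + WT library (0.191% at most), and 1 of 8 tested passed, Mal, which was higher. Their part in the response was not tested. Levels below are TMM-scaled CPM of these sums, a gene passed when its Benjamini-Hochberg adjusted p was under 0.05 and its fold change over 0.25 on the natural log scale, and p-values measure the spread between mice. None of the 20 genes named first for this comparison (the 10 largest increases and 10 largest decreases by the naming rule) lost its call under any alternative.

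Lrg1 itself, the gene removed in the knockout, stood at 0.533, 1.42 and 0.408 CPM in sham + WT and 53.2 and 57.1 in MCAO/R + WT, and 0 UMIs were found in the 6 Lrg1-/- libraries. It rose after MCAO/R in WT arterial cells (log2 fold change 6.19 with SE 0.38 and adjusted p = 2.02e-05), and in MCAO/R + Lrg1-/- it was at least 109-fold lower than in MCAO/R + WT, with 3 UMIs over the group as the floor. At the sham level, 8 UMIs over 3 libraries, a loss was not detectable at this depth. Lrg1 lies on chromosome 17, 56119678-56122001, minus strand of GRCm38 (as do all positions here).

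The steepest fall among genes over 50 CPM was that of Alpl (chromosome 4, 137741733-137796384, minus strand), the tissue-nonspecific alkaline phosphatase of the arterial wall and barrier. Its libraries held 300.2, 259.7 and 321 CPM in sham + WT and 12.01 and 23.5 in MCAO/R + WT, so both MCAO/R libraries lay far below every sham library (log2 fold change -4.08 with SE 0.27 and adjusted p = 2.48e-06). The growth factor pleiotrophin, Ptn, held 1335, 1401 and 1289 CPM in sham + WT and 159 and 302 in MCAO/R + WT (log2 fold change -2.54 with SE 0.32 and adjusted p = 0.000235). The phospholipid transfer protein Pltp held 2325, 2150.2 and 2457 CPM in sham + WT and 387 and 494 in MCAO/R + WT (log2 fold change -2.39 with SE 0.35 and adjusted p = 0.000704). Neither gene's groups overlapped. Alox12, an arachidonate lipoxygenase (-3.15), Sgpp2, a sphingosine phosphate phosphatase (-2.42), the actin-binding Synpo2 (-3.35) and Lmntd1 (-3.11) fell as well, in log2. The transcriptional co-repressor Runx1t1 (-2.397), the interferon-induced GTPase Gbp3 (-2.35) and the heat shock gene Hspa1b (-2.91) completed the 10 largest decreases.

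Among the increases, Doc2b (chromosome 11, 75768966-75796049, minus strand), a calcium sensor of vesicle release, went from near 0 to well over 100 CPM. It held 0, 0.354 and 1.02 CPM in sham + WT and 132 and 185 in MCAO/R + WT (log2 fold change 8.13 with SE 0.38 and adjusted p = 1.26e-07). Lcn2, the acute phase protein lipocalin 2, held 6.399, 2.48 and 2.45 CPM in sham + WT and 544 and 433 in MCAO/R + WT (log2 fold change 7.002 with SE 0.54 and adjusted p = 6.42e-06), and the groups of both genes were far apart. The guidance receptor ligand Sema5a (chromosome 15, 32244810-32696341, plus strand) held 8.53, 9.21 and 7.75 CPM in sham + WT and 103 and 138 in MCAO/R + WT (log2 fold change 3.83 with SE 0.23 and adjusted p = 1.79e-06). Igfbp4, a carrier of insulin-like growth factors, held 14.4, 18.8 and 21.8 CPM in sham + WT and 296 and 228 in MCAO/R + WT (log2 fold change 3.83 with SE 0.54 and adjusted p = 0.000621). The cholesterol 25-hydroxylase Ch25h held 6.93, 6.38 and 9.38 CPM in sham + WT and 173 and 51.9 in MCAO/R + WT (3.86 in log2). Ctla2a, a cysteine protease inhibitor, was the most abundant of these, with 268, 203 and 205 CPM in sham + WT and 5055 and 1813 in MCAO/R + WT. Phactr3 (4.22) also rose, but its level in microglia-gated cells of MCAO/R + WT (88.4 CPM) was above its mean in arterial cells (77.003 CPM).

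The glucocorticoid-responsive list showed the most uniform rise. Of 11 genes tested 8 rose and none fell, with a median log2 fold change of 1.25 beside -0.01 over all genes and 4.58% of all genes called higher. Fkbp5, the receptor's co-chaperone and a classical target, held 3.73, 4.96 and 6.32 CPM in sham + WT and 197 and 227 in MCAO/R + WT (log2 fold change 5.36 with SE 0.23 and adjusted p = 9.26e-08). Its level in microglia-gated cells was higher still, 528 CPM after MCAO/R against 32.4 CPM after sham, so arterial cells and free RNA from other cells were not separated for this gene. Zbtb16, a zinc-finger repressor, held 31.7, 12.8 and 6.12 CPM in sham + WT and 400.4 and 468 in MCAO/R + WT (log2 fold change 4.702 with SE 0.48 and adjusted p = 4.53e-05). Tsc22d3, the leucine zipper that blunts inflammatory signalling, held 153, 110.2 and 105 CPM in sham + WT and 446 and 533 in MCAO/R + WT (log2 fold change 1.99 with SE 0.17 and adjusted p = 1.49e-05). The kinase Map3k6 held 24.8, 14.9 and 18.8 CPM in sham + WT and 149 and 149 in MCAO/R + WT (log2 fold change 2.92 with SE 0.21 and adjusted p = 2.66e-06). No group overlapped for these 4 genes. Sult1a1 (2.53), Ddit4 (1.25), Sgk1 (1.19) and Cdkn1a (1.11) rose as well, and Per1 (0.33, adjusted p = 0.25) and Klf9 (0.24, adjusted p = 0.408) did not pass. With any 1 library left out, 6 to 8 genes of the list rose.

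The glucocorticoid receptor binds inverted repeats, and the palindrome ACANNNTGT is their core. In the 250 bases before and 50 after each RefSeq start site on GRCm38.p6, 2249 of 32851 windows held it (6.85%), and among the 10 listed genes with a window it was found for Sgk1 and Map3k6. The 250 bases before these starts are printed because both genes rose together with the list, 5′ to 3′ on the gene's own strand, with the match in capitals. The Sgk1 window is chr10:21993640-21993889 on the plus strand, with the match 186 bases before the start, and the Map3k6 window is chr4:133240568-133240817 on the plus strand, with the match 179 bases before it. A match is a description of letters, and no binding was measured.
Sgk1: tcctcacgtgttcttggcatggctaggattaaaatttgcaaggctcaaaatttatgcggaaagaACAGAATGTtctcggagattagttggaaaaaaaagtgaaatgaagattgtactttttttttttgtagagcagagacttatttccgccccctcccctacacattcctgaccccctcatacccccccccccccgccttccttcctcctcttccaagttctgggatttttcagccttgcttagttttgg
Map3k6: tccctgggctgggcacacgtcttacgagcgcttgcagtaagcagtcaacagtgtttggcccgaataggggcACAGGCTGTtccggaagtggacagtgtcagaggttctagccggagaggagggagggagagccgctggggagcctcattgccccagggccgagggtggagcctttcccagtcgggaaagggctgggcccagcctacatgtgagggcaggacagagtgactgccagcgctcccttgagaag

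Of 14 tested genes of the Stat3 and acute phase list 9 rose and none fell, with a median of 0.90. Beside Lcn2 and Ch25h these were the receptor subunits Osmr (0.91), Il4ra (1.402) and Tnfrsf1a (0.89). The transcription factor Cebpd held 90.9, 99.2 and 101 CPM in sham + WT and 445 and 365 in MCAO/R + WT (log2 fold change 2.06 with SE 0.27 and adjusted p = 0.000374). Bcl3 (0.74) and Pim3 (1.77) rose too. The serpin gene Serpina3n held 0, 0.354 and 0 CPM in sham + WT and 25.7 and 38.5 in MCAO/R + WT. Serpina3n belongs to a family of near-identical copies, so reads may be divided between them, and its sham level gives no fold. Il4ra, Bcl3 and Tnfrsf1a were higher in microglia-gated cells of MCAO/R + WT (135, 37.0 and 103 CPM). Stat3 (0.26, adjusted p = 0.536) and its inhibitor Socs3 (0.004, adjusted p = 1) did not pass. Without MCAO/R + WT replicate 1, the library with choroid plexus RNA, 5 genes of the list rose.

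Some interferon-stimulated genes and some of the machinery that loads peptides on MHC class I fell. Of 16 interferon-stimulated genes 7 fell and none rose (median -1.06, with 5.01% of all genes called lower). Gbp2, a guanylate-binding protein, held 85.1, 92.1 and 79.6 CPM in sham + WT and 28.1 and 17.96 in MCAO/R + WT (log2 fold change -1.87 with SE 0.37 and adjusted p = 0.00638). Gbp7 held 126, 133 and 138 CPM in sham + WT and 40.96 and 36.2 in MCAO/R + WT (log2 fold change -1.77 with SE 0.29 and adjusted p = 0.00155). All MCAO/R + WT libraries lay below all sham + WT libraries for both genes. Gbp3, Rsad2, Oasl2 and the tethering factor Bst2 (-1.19) were among the others. The number that fell was 3 without MCAO/R + WT replicate 2 and 13 in cells with at least 3 of the 4 arterial markers. Of 11 MHC class I genes 5 fell and none rose (median -0.63), among them the immunoproteasome subunits Psmb9 (-1.72, SE 0.28) and Psmb8 (-1.13, SE 0.20) and the heavy chain H2-K1 (-0.62, SE 0.15), and without sham + WT replicate 3 the number was 3.

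Of 10 heat shock genes 3 fell and none rose (median -0.47). Hspa1b held 188, 451 and 303 CPM in sham + WT and 46.8 and 36.5 in MCAO/R + WT (log2 fold change -2.91 with SE 0.45 and adjusted p = 0.00109). Its near-identical copy Hspa1a held 698, 1174 and 1098 CPM in sham + WT and 259 and 289 in MCAO/R + WT (log2 fold change -1.85 with SE 0.35 and adjusted p = 0.00422). The co-chaperone Hsph1 held 71.2, 113 and 85.3 CPM in sham + WT and 17.6 and 21.1 in MCAO/R + WT (log2 fold change -2.21 with SE 0.26 and adjusted p = 0.000125). Reads may be shared between Hspa1a and Hspa1b, and the groups of the 3 genes did not overlap. The letters GAANNTTC, a pair of the inverted repeats that heat shock factor binds, occurred in 2582 of the 32851 windows (7.86%) and in those of 6 of the 7 listed genes with a window (Hspa1a, Hspa1b, Hsph1, Hspd1, Hspe1 and Hspb1), of which the first 3 fell. These matches are not independent. Those of Hspd1 and Hspe1 are the same bases read on opposite strands, and the windows of Hspa1a and Hspa1b are near-identical. The 250 bases before the Hspa1b start, chr17:34959239-34959488 on the minus strand, are printed with the match, 104 bases before the start, in capitals.
Hspa1b: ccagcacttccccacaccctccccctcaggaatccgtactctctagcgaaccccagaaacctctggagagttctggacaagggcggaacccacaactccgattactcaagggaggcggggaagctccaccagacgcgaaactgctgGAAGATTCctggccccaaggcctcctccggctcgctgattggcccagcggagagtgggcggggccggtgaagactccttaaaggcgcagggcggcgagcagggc

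Part of the arterial identity list was lower. Of the 15 identity genes outside the rule 3 fell and none rose (median -0.49), namely Alpl, Stmn2 and Unc5b. This was not particular to arterial cells. In capillary cells of the same WT mice 7 of the 15 fell and 1 rose (median -0.54), beside 9.18% of all genes called lower and 8.85% higher there. Stmn2 held 241, 229 and 222 CPM in sham + WT and 39.03 and 68.4 in MCAO/R + WT (log2 fold change -2.11 with SE 0.24 and adjusted p = 0.000115). The netrin receptor Unc5b held 115, 149 and 139 CPM in sham + WT and 64.6 and 53.9 in MCAO/R + WT (log2 fold change -1.18 with SE 0.24 and adjusted p = 0.00797). Hey1 (-0.96, adjusted p = 0.0643), Efnb2 (-0.72, adjusted p = 0.0512), Sox17 (-0.44, adjusted p = 0.16), Jag1 (-0.198, adjusted p = 0.558), Eln (-0.24, adjusted p = 0.73) and Mgp (0.84, adjusted p = 0.253) did not pass. Of 14 Notch pathway genes, Notch1 rose slightly (0.43, SE 0.12) and none fell. Of the 7 venous genes 4 were higher, and Vcam1 did not pass. Vwf and Tmem252 were higher in arterial than in capillary cells in 11 and 10 of 11 libraries. Pooled venous cells (endothelial cells with an Ackr1 UMI) held more of both, 563 and 861 CPM against 285 and 575 CPM in pooled arterial cells. The pools differ in makeup, since 1197 of the 1923 venous cells came from MCAO/R + Lrg1-/- replicate 2. In capillary cells of the same mice 4 of the 7 rose too and 1 fell (median 1.16). Vwf held 117, 154 and 165 CPM in sham + WT and 448 and 446 in MCAO/R + WT (log2 fold change 1.62 with SE 0.16 and adjusted p = 3.67e-05). The interleukin-1 receptor Il1r1 held 51.99, 48.2 and 50.6 CPM in sham + WT and 156 and 161 in MCAO/R + WT (log2 fold change 1.65 with SE 0.18 and adjusted p = 7.48e-05). Tmem252 held 101, 113 and 89.2 CPM in sham + WT and 984 and 665 in MCAO/R + WT (log2 fold change 3.03 with SE 0.35 and adjusted p = 0.000115). No group overlapped for these 3 genes. Cells with exactly 2 markers made up 59.9% of arterial cells in MCAO/R + WT and 40.5% in sham + WT. Pooled over all libraries they held less Alpl and Stmn2 (83.8 and 70.04 CPM against 166 and 159 CPM in all arterial cells) and more Il1r1 and Tmem252 (115 and 694 CPM against 69.96 and 575 CPM). Of these 1198 cells 655 came from MCAO/R libraries, so the pooled levels do not separate marker number from operation. In cells with at least 3 markers the log2 fold changes were -3.55 for Alpl, -1.89 for Stmn2, -1.17 for Unc5b, 1.62 for Vwf, 2.90 for Il1r1 and 3.16 for Tmem252, and all 6 passed.

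In the TGF-beta and BMP list 1 of 21 genes passed, the ligand Tgfb2 (chromosome 1, 186622792-186705989, minus strand). It held 534, 524 and 644 CPM in sham + WT and 131 and 122 in MCAO/R + WT (log2 fold change -2.16 with SE 0.18 and adjusted p = 9.67e-06), while its receptors Tgfbr1 (-0.11, adjusted p = 0.827) and Tgfbr2 (-0.09, adjusted p = 0.812), Eng (-0.28, adjusted p = 0.364) and Acvrl1 (-0.08, adjusted p = 0.754) did not pass. In the VEGF and angiopoietin list 3 of 10 genes rose, Angpt2, with 6.93, 7.09 and 6.53 CPM in sham + WT and 73.99 and 19.99 in MCAO/R + WT (2.795), Flt4 (0.702) and Pgf (2.47), and 3 fell, Nrp1 (-1.36), the angiopoietin receptor Tek (-1.02) and Tie1 (-0.73). Matrix genes were divided, with Col4a1 (1.05), Col4a2 (1.35) and Nid1 (0.85) of the basement membrane higher and Fbln2 (-1.48), Ltbp4 (-1.32) and Lama4 (-1.14) lower among 18 tested. The remaining 12 matrix genes did not pass. The number of VEGF genes that rose was 1 without sham + WT replicate 3, and the number of matrix genes that rose was 1 without MCAO/R + WT replicate 1.

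Of 11 coagulation and fibrinolysis genes 4 rose: Plaur, the urokinase receptor, with 41.9, 42.2 and 22.6 CPM in sham + WT and 351 and 173 in MCAO/R + WT (log2 fold change 2.904 with SE 0.39 and adjusted p = 0.00039), the plasminogen activator Plat (1.08), the protein C receptor Procr (1.07) and Vwf. S100a10 and Entpd1 fell, the list's median was 1.07, and 2 genes rose without MCAO/R + WT replicate 1. Of 15 barrier transporters 4 rose, among them the glucose transporter Slc2a1 and the efflux pump Abcc4 (1.18, SE 0.15). Slc2a1 held 1875, 2025 and 2046 CPM in sham + WT and 4646 and 5687 in MCAO/R + WT (log2 fold change 1.38 with SE 0.18 and adjusted p = 0.000265). Of the 15, 1 fell, the cationic amino acid transporter Slc7a1 (-0.87, SE 0.16). Cav1, the coat protein of caveolae, was the single gene of 15 in the nitric oxide and endothelin list to pass, with 224, 264 and 257 CPM in sham + WT and 81.5 and 99.7 in MCAO/R + WT (log2 fold change -1.46 with SE 0.14 and adjusted p = 3.38e-05), and Nos3 (0.07, adjusted p = 0.821) and Edn1 (-0.26, adjusted p = 0.646) did not. None of 7 leukocyte adhesion genes passed by edgeR's quasi-likelihood test, Icam1 (0.29, adjusted p = 0.634) and Vcam1 (-0.13, adjusted p = 0.86) included.

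**Figure D3:**
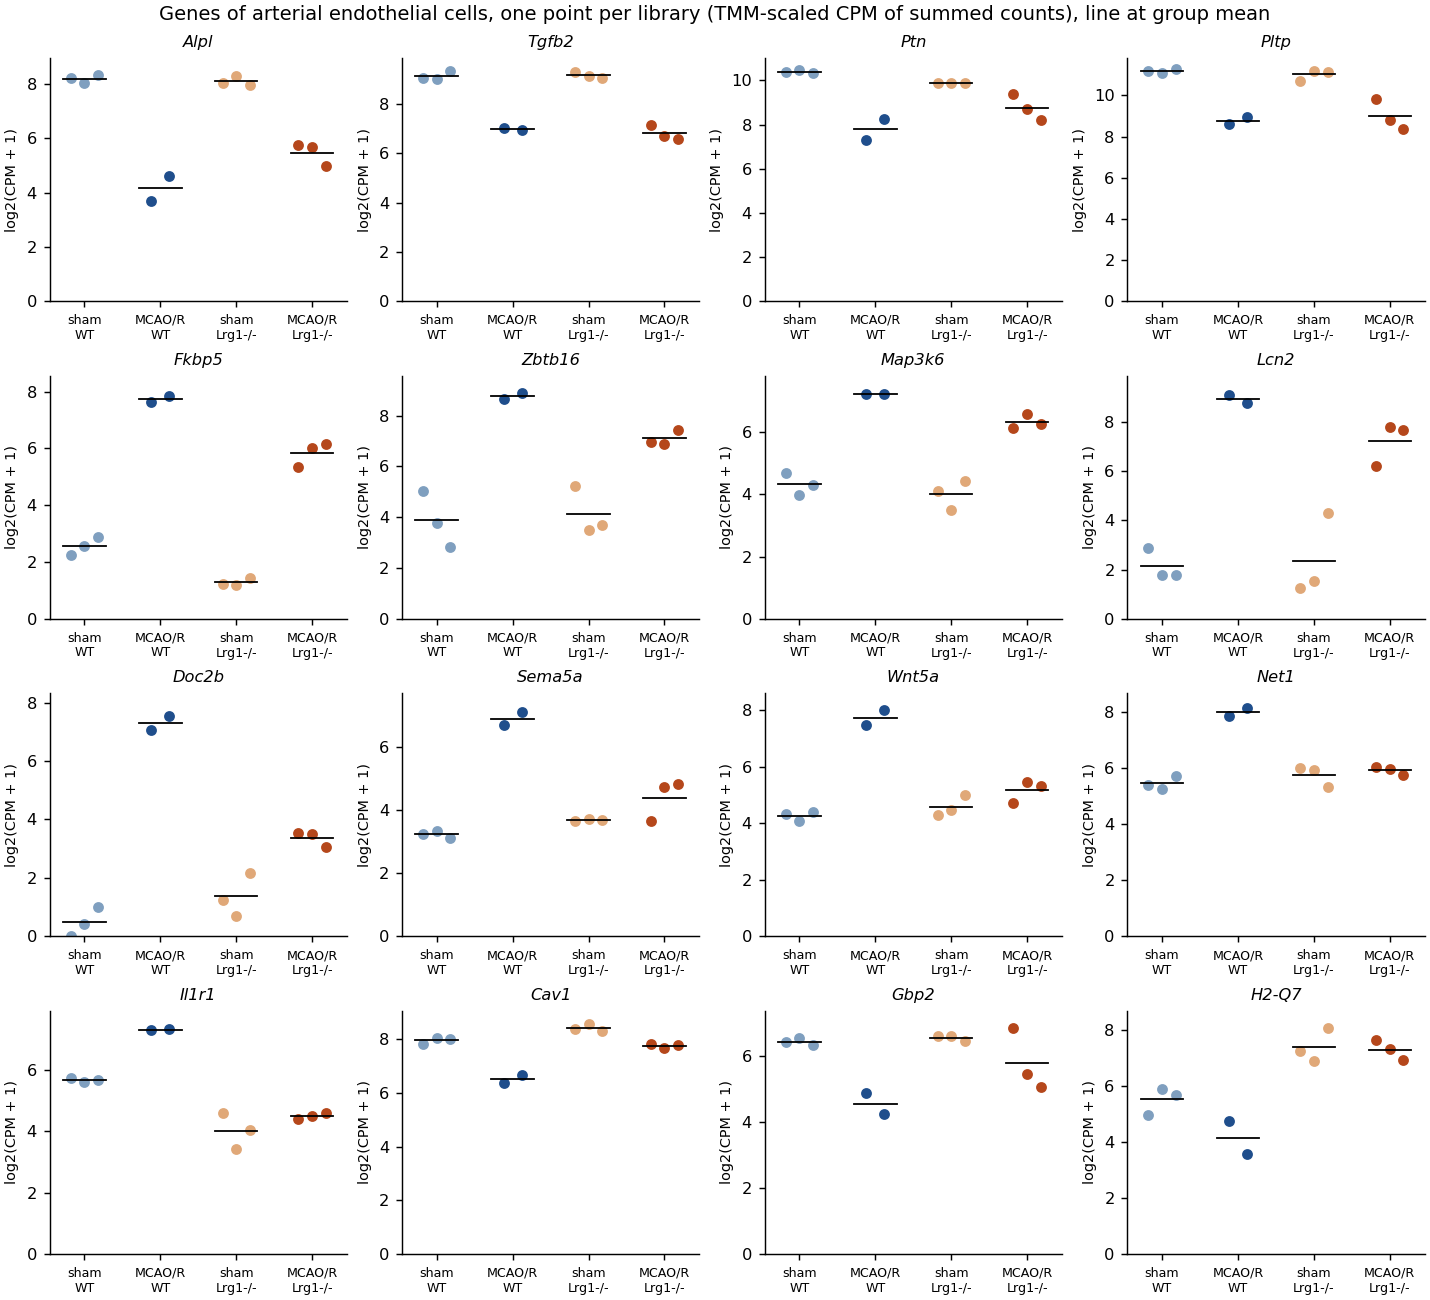
Levels of 16 genes in arterial endothelial cells as log2(TMM-scaled CPM + 1), 1 point per library in 4 groups, lines at group means. Alpl, Tgfb2, Ptn and Pltp lie lower and Lcn2, Zbtb16 and Map3k6 higher after MCAO/R in both genotypes, and Doc2b, Sema5a, Wnt5a, Net1 and Il1r1 are highest in the 2 MCAO/R + WT libraries.

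The comparison of MCAO/R + Lrg1-/- with MCAO/R + WT asks how arterial cells differed between genotypes after the same operation. Of 12572 genes 1073 were higher (8.53%) and 1065 lower (8.47%) in Lrg1-/-, 17% in all, with a median of 0.01. This count fell to 1026 without MCAO/R + WT replicate 1, to 1007 without replicate 2 and to 1386 without MCAO/R + Lrg1-/- replicate 2. The haemoglobin genes, higher in all Lrg1-/- libraries (5 of 5 tested passed), moved with it. So did the neutrophil markers S100a8, S100a9 and Retnlg (3 of 4 tested passed higher), through MCAO/R + Lrg1-/- replicates 2 and 5, and their part in the difference was not tested.

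None of the 10 largest decreases in Lrg1-/- lost its call under any alternative, whereas 6 of the 10 largest increases did. Doc2b held 132 and 185 CPM in MCAO/R + WT and 10.6, 10.3 and 7.35 in MCAO/R + Lrg1-/- (log2 fold change -4.02 with SE 0.29 and adjusted p = 1.28e-05). Il1r1 (chromosome 1, 40225080-40317257, plus strand) held 156 and 161 CPM in MCAO/R + WT and 20.2, 21.6 and 23.1 in MCAO/R + Lrg1-/- (log2 fold change -2.87 with SE 0.21 and adjusted p = 1.28e-05). It was also lower after sham, with 51.99, 48.2 and 50.6 CPM in sham + WT and 23.2, 9.61 and 15.5 in sham + Lrg1-/-. Wnt5a (chromosome 14, 28504750-28527448, plus strand), a non-canonical Wnt ligand, held 176 and 255 CPM in MCAO/R + WT and 24.98, 43.4 and 38.8 in MCAO/R + Lrg1-/- (log2 fold change -2.53 with SE 0.22 and adjusted p = 4.99e-05). Sema5a held 103 and 138 CPM in MCAO/R + WT and 11.5, 25.7 and 27.3 in MCAO/R + Lrg1-/- (log2 fold change -2.43 with SE 0.23 and adjusted p = 7.16e-05). All 3 MCAO/R + Lrg1-/- libraries lay below both MCAO/R + WT libraries for each of these. Net1, an exchange factor for the GTPase RhoA, held 233 and 279.9 CPM in MCAO/R + WT and 64.4, 61.9 and 53.5 in MCAO/R + Lrg1-/- (log2 fold change -2.09 with SE 0.18 and adjusted p = 4.99e-05). The kinase Tnik held 190.02 and 235 CPM in MCAO/R + WT and 31.7, 40.8 and 41.98 in MCAO/R + Lrg1-/- (log2 fold change -2.46 with SE 0.23 and adjusted p = 7.16e-05). Pknox2 (-2.39), Lonrf3 (-2.300) and the p53-induced Trp53inp1 (-2.04) completed the decreases with Lrg1 itself. Lonrf3 was also lower after sham, with 57.9, 34.0 and 38.6 CPM in sham + WT and 10.2, 11.5 and 1.72 in sham + Lrg1-/-. For Doc2b, Wnt5a, Net1, Tnik, Pknox2 and Trp53inp1 the sham libraries of the genotypes overlapped.

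Among the increases, H2-Q7 held 25.7 and 11.01 CPM in MCAO/R + WT and 199, 159.7 and 122 in MCAO/R + Lrg1-/- (log2 fold change 3.09 with SE 0.42 and adjusted p = 0.000576). H2-Q6 held 16.3 and 9.56 CPM in MCAO/R + WT and 104, 70.3 and 47.2 in MCAO/R + Lrg1-/- (log2 fold change 2.48 with SE 0.43 and adjusted p = 0.00237). Both are class I genes of a cluster of near-identical copies that differs between mouse lines, so reads may be divided between them. Ube2l6, the enzyme that attaches ISG15 to proteins, held 15.01 and 10.1 CPM in MCAO/R + WT and 77.8, 48.8 and 65.1 in MCAO/R + Lrg1-/- (log2 fold change 2.28 with SE 0.27 and adjusted p = 0.000286). Ifitm1 held 28.95 and 9.27 CPM in MCAO/R + WT and 45.2, 91.7 and 141 in MCAO/R + Lrg1-/- (log2 fold change 2.23 with SE 0.45 and adjusted p = 0.00574). For the 4 genes all MCAO/R + Lrg1-/- libraries lay above the MCAO/R + WT libraries. After sham H2-Q7 held 30.4, 59.2 and 50.6 CPM in WT and 154, 119 and 269 in Lrg1-/-, and H2-Q6 17.9, 41.8 and 37.3 against 84.5, 58.3 and 124. All sham + Lrg1-/- libraries also lay above all sham + WT libraries for these 4 genes, Fcrls, Lgals1 and Coro1a. Il1b, Fbln5 and Upp1 overlapped. After sham 34.1% of all genes tested did not overlap between genotypes. Of the 10 largest increases 6 (Il1b, Fcrls, Lgals1, Ifitm1, Fbln5 and Coro1a) had the order of the neutrophil markers' summed share over the 3 MCAO/R + Lrg1-/- libraries (0.000784%, 0.102% and 0.196%). The microglia markers' summed share had the same order (0.0714%, 0.178% and 0.408%), so the order does not set the 2 cell types apart. The share of all genes with this order was not counted. Il1b (10.3 and 2.03 CPM in MCAO/R + WT and 10.6, 86.5 and 269.8 in MCAO/R + Lrg1-/-), Fcrls, Lgals1 and Coro1a also passed, but their levels in microglia-gated cells of MCAO/R + Lrg1-/- (283, 968, 171 and 430 CPM) were above those in arterial cells. Fbln5, with 19.9 and 25.8 CPM in MCAO/R + WT and 49.00, 65.7 and 216 in MCAO/R + Lrg1-/-, rested on MCAO/R + Lrg1-/- replicate 5 for its size, and Fbln5, Il1b, Lgals1, Coro1a and the uridine phosphorylase Upp1 each lost their call when 1 library was left out. Ube2l6 lost its call with cells thinned to 1000 UMIs.

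Genes of the glucocorticoid list were lower in Lrg1-/- after MCAO/R, 7 of 11, with none higher and a median of -0.80. Fkbp5 held 197 and 227 CPM in MCAO/R + WT and 39.4, 63.4 and 70.3 in MCAO/R + Lrg1-/- (log2 fold change -1.86 with SE 0.19 and adjusted p = 0.000129). Zbtb16 held 400.4 and 468 CPM in MCAO/R + WT and 125, 118 and 172 in MCAO/R + Lrg1-/- (log2 fold change -1.67 with SE 0.43 and adjusted p = 0.0181). Map3k6 held 149 and 149 CPM in MCAO/R + WT and 70.1, 94.5 and 76.6 in MCAO/R + Lrg1-/- (log2 fold change -0.87 with SE 0.20 and adjusted p = 0.0107). Lrg1-/- libraries lay between the sham + WT and MCAO/R + WT libraries for these genes. Tsc22d3, Klf9, Cdkn1a and Sult1a1 were the others. The count was 2 without MCAO/R + WT replicate 2 and 3 in cells with at least 3 arterial markers.

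Interferon-stimulated genes were higher in Lrg1-/- after MCAO/R for 5 of 16 (Ifitm3, Bst2, Gbp2, Gbp7 and Ifi27l2a), with none lower and a median of 0.95. Bst2 was about as high in microglia-gated cells (199 CPM against 198 CPM in arterial cells). Gbp2 held 28.1 and 17.96 CPM in MCAO/R + WT and 113, 42.4 and 32.5 in MCAO/R + Lrg1-/- (log2 fold change 1.37 with SE 0.39 and adjusted p = 0.0291). Ifitm3 held 1265 and 756 CPM in MCAO/R + WT and 2202, 2695 and 1518 in MCAO/R + Lrg1-/- (log2 fold change 1.08 with SE 0.24 and adjusted p = 0.0092). Gbp2 was highest in MCAO/R + Lrg1-/- replicate 1, the library of 54 cells. No gene of the list passed without MCAO/R + WT replicate 2, and 2 passed in cells with at least 3 arterial markers, a fit that also lacked MCAO/R + Lrg1-/- replicate 1. MHC class I genes were higher for 6 of 11, with none lower and a median of 0.71, and H2-K1 held 619 and 512 CPM in MCAO/R + WT and 1417, 1369 and 1114 in MCAO/R + Lrg1-/- (log2 fold change 1.202 with SE 0.15 and adjusted p = 0.000372). Psmb8 held 68.8 and 59.1 CPM in MCAO/R + WT and 229.6, 172 and 127 in MCAO/R + Lrg1-/- (log2 fold change 1.46 with SE 0.21 and adjusted p = 0.000714). With any 1 library left out, 4 to 9 genes of the list were higher. H2-K1 and B2m were also higher in Lrg1-/- after sham (0.71, SE 0.13 and 1.02, SE 0.23).

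Cav1 was higher in Lrg1-/- (81.5 and 99.7 CPM in MCAO/R + WT and 224, 201 and 223 in MCAO/R + Lrg1-/-, log2 fold change 1.25 with SE 0.14 and adjusted p = 0.000243), while the synthesis and trafficking genes of nitric oxide Gch1 (-0.81) and Nostrin (-1.19) and the endothelin Edn3 (-1.11) were lower. Of 15 barrier transporters 5 were lower and none higher (median -0.52), among them Slc2a1, with 4646 and 5687 CPM in MCAO/R + WT and 2719, 3133 and 1899 in MCAO/R + Lrg1-/- (log2 fold change -0.999 with SE 0.18 and adjusted p = 0.00264), Abcc4 (log2 fold change -1.59 with SE 0.15 and adjusted p = 7.16e-05) and Insr (-0.74), and 2 were lower without MCAO/R + WT replicate 2. Of 13 junction genes 5 were lower, including Ocln (-0.57) and Tjp1 (-0.88), and 2 without MCAO/R + WT replicate 1. The tissue plasminogen activator gene Plat held 1401 and 1416 CPM in MCAO/R + WT and 330.5, 517 and 260.3 in MCAO/R + Lrg1-/- (log2 fold change -1.92 with SE 0.24 and adjusted p = 0.000375). Of the identity genes, Mgp (1.76), Fbln5, Stmn2 (0.77) and Alpl were higher and Sox17 was lower (-0.57). Alpl held 12.01 and 23.5 CPM in MCAO/R + WT and 52.8, 50.3 and 30.4 in MCAO/R + Lrg1-/- (log2 fold change 1.39 with SE 0.28 and adjusted p = 0.00508), and none of the 4 passed without MCAO/R + WT replicate 1.

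Genes of oxidative phosphorylation were higher in Lrg1-/- for 16 of 21 (median 0.66) and ribosomal protein genes for 61 of 77 (median 0.65), with none lower in either list. After sham the counts were 18 of 21 (median 0.61) and 70 of 77 (median 0.70). Cox4i1, a subunit of cytochrome oxidase, held 424, 415 and 402 CPM in sham + WT, 388 and 409.95 in MCAO/R + WT, 685, 582 and 672 in sham + Lrg1-/- and 562, 605 and 723 in MCAO/R + Lrg1-/-, so the libraries divided by genotype and not by operation. All 5 haemoglobin genes tested were higher too in both comparisons. With cells that held no UMI of the 8 other-cell markers, 12 of the 21 passed after MCAO/R and 10 after sham.

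After sham, 550 genes were higher (4.37%) and 873 lower (6.94%) in Lrg1-/- arterial cells, 11.3% in all, with a median of 0.01. The balance turned to 439 higher and 375 lower without the cells in the top 6% of UMIs, and to 168 higher and 95 lower with cells thinned to 1000 UMIs. Of the 2138 genes that passed between genotypes after MCAO/R and the 1423 after sham, 786 passed in both with the same sign, 36.8% of the first list and 55.2% of the second, and 3 with opposite signs. Lmntd1 held 90.9, 87.9 and 108 CPM in sham + WT and 18.4, 19.9 and 24.1 in sham + Lrg1-/- (log2 fold change -2.25 with SE 0.31 and adjusted p = 0.00122). The nucleotidase-related Nt5dc3 held 136, 111 and 123 CPM in sham + WT and 33.4, 32.7 and 37.9 in sham + Lrg1-/- (log2 fold change -1.85 with SE 0.18 and adjusted p = 0.000331). The non-coding RNA Lncpint held 755, 652 and 709 CPM in sham + WT and 229, 193 and 153 in sham + Lrg1-/- (log2 fold change -1.86 with SE 0.17 and adjusted p = 0.000201). No groups overlapped, although Lncpint was higher in microglia-gated than in arterial cells of sham + WT (825 CPM), and Lncpint and Nt5dc3 showed like values after MCAO/R. Among the increases, Chchd10 (6.67, 4.96 and 5.51 CPM in sham + WT and 176, 67.9 and 61.99 in sham + Lrg1-/-) and Ecrg4 (1.33, 8.15 and 2.45 CPM in sham + WT and 142, 85.9 and 44.8 in sham + Lrg1-/-) were higher still in microglia-gated cells of sham + Lrg1-/- (304 and 262 CPM), and all 7 choroid plexus genes tested were higher as well. The summed shares of microglia markers (0.0602% to 0.0855% against 0.113% to 0.131%) and of smooth muscle markers (0.0172% to 0.0725% against 0.0935% to 0.155%) were also higher in sham + Lrg1-/- than in sham + WT, with none of their 14 tested genes past the threshold by edgeR's quasi-likelihood test. Pericyte markers were higher as well (0.00369% to 0.0105% against 0.0118% to 0.0601%), and 2 of 5 tested passed, Higd1b and Rgs5. The part of these markers in the difference was not tested. Gzma, a protease of cytotoxic lymphocytes, also passed, with 3.41, 2.56 and 301 CPM in the 3 sham + Lrg1-/- libraries, and lost its call in 7 alternatives, among them leaving out sham + Lrg1-/- replicate 5, the library that held most of it.

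Of the identity genes after sham, Clu was higher (58.9, 57.1 and 99.97 CPM in sham + WT and 284, 219.8 and 170.5 in sham + Lrg1-/-, log2 fold change 1.65 with SE 0.34 and adjusted p = 0.00847) and Efnb2 lower (167, 208 and 215 CPM in sham + WT and 119.9, 135 and 108 in sham + Lrg1-/-, log2 fold change -0.69 with SE 0.20 and adjusted p = 0.0405) in Lrg1-/-, and 13 of 15 did not pass. None of the 16 interferon-stimulated genes passed by edgeR's quasi-likelihood test (median 0.14), and of the glucocorticoid list Fkbp5 was lower (3.73, 4.96 and 6.32 CPM in sham + WT and 1.36, 1.28 and 1.72 in sham + Lrg1-/-). In the TGF-beta and BMP list 4 of 21 were lower, Tgfb1 (-0.51), Tgfbr1 (-0.88), Bmpr2 (-0.46) and Smad2 (-0.62). Tgfb1, Tgfbr1 and Smad2 were higher in microglia-gated than in arterial cells of sham + WT (313, 632 and 79.6 CPM), and 1 gene of the list was lower without sham + WT replicate 1. Tgfb2 did not pass (0.03, adjusted p = 0.937).

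Within Lrg1-/- mice 434 genes rose (3.45%) and 453 fell (3.6%) after MCAO/R, 7.06% in all, with a median of 0.01. The count was 253 without sham + Lrg1-/- replicate 2 (131 higher and 122 lower) and 1504 without MCAO/R + Lrg1-/- replicate 1 (881 higher and 623 lower). Summed shares of smooth muscle markers (0.0112% to 0.0787% against 0.0935% to 0.155%) and choroid plexus genes (0.455% to 0.562% against 0.582% to 1.26%) were lower in all MCAO/R + Lrg1-/- libraries than in all sham + Lrg1-/- libraries. Neutrophil markers were higher in replicates 2 and 5 (0.102% and 0.196%, 3 of 4 tested passed), and the part of these in the response was not tested. Tgfb2 held 637, 565 and 534 CPM in sham + Lrg1-/- and 143, 103 and 95.5 in MCAO/R + Lrg1-/- (log2 fold change -2.36 with SE 0.16 and adjusted p = 2.34e-05). Alpl held 263, 313 and 249.7 CPM in sham + Lrg1-/- and 52.8, 50.3 and 30.4 in MCAO/R + Lrg1-/- (log2 fold change -2.597 with SE 0.23 and adjusted p = 0.000146). Sgpp2 held 221, 247 and 145 CPM in sham + Lrg1-/- and 61.5, 32.9 and 38.8 in MCAO/R + Lrg1-/- (log2 fold change -2.29 with SE 0.26 and adjusted p = 0.000669). The groups did not overlap. Lcn2 held 1.36, 1.92 and 18.9 CPM in sham + Lrg1-/- and 73.02, 221 and 203 in MCAO/R + Lrg1-/- (log2 fold change 5.18 with SE 0.64 and adjusted p = 0.00105). Osteopontin, Spp1, held 0.681, 1.92 and 0 CPM in sham + Lrg1-/- and 80.7, 2317 and 931 in MCAO/R + Lrg1-/-, and its level in microglia-gated cells of MCAO/R + Lrg1-/- was higher (2631 CPM). The responses in WT and Lrg1-/- mice, which share no libraries, had 421 called genes in common with the same sign, 34.9% of the WT list and 47.5% of the Lrg1-/- list, and none with opposite signs.

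Immediate early genes, the first transcribed after a stimulus or dissociation, fell in 10 of 15 cases in Lrg1-/- mice (median -0.67, none higher). Zfp36 held 1650.4, 1767 and 1768 CPM in sham + Lrg1-/- and 1023, 789 and 736 in MCAO/R + Lrg1-/- (log2 fold change -1.03 with SE 0.15 and adjusted p = 0.00168). Fos held 6788, 7477 and 7122 CPM in sham + Lrg1-/- and 5027, 4396 and 4018 in MCAO/R + Lrg1-/- (log2 fold change -0.67 with SE 0.12 and adjusted p = 0.00736). In WT mice 1 rose and 1 fell of 15, Maff (0.89) and Nr4a1 (-1.16), and the difference between genotypes passed for none of the list in the interaction test. The number was 6 without sham + Lrg1-/- replicate 2. Glucocorticoid genes rose for 5 of 11 (median 0.69), Stat3 and acute phase genes for 6 of 14 with Socs3 lower, and of the identity genes Mgp rose and Sox17, Stmn2, Alpl, Unc5b and Jag1 fell. Id1, Id3 and Smad7, targets of BMP and TGF-beta signalling, fell in Lrg1-/- (-0.85, -0.78 and -0.88) and did not pass in WT (0.06, -0.13 and -0.36), and their interactions did not pass. In the TGF-beta and BMP list 4 genes fell in Lrg1-/-, Tgfb2 included, and 1 without sham + Lrg1-/- replicate 2.

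**Figure D4:**
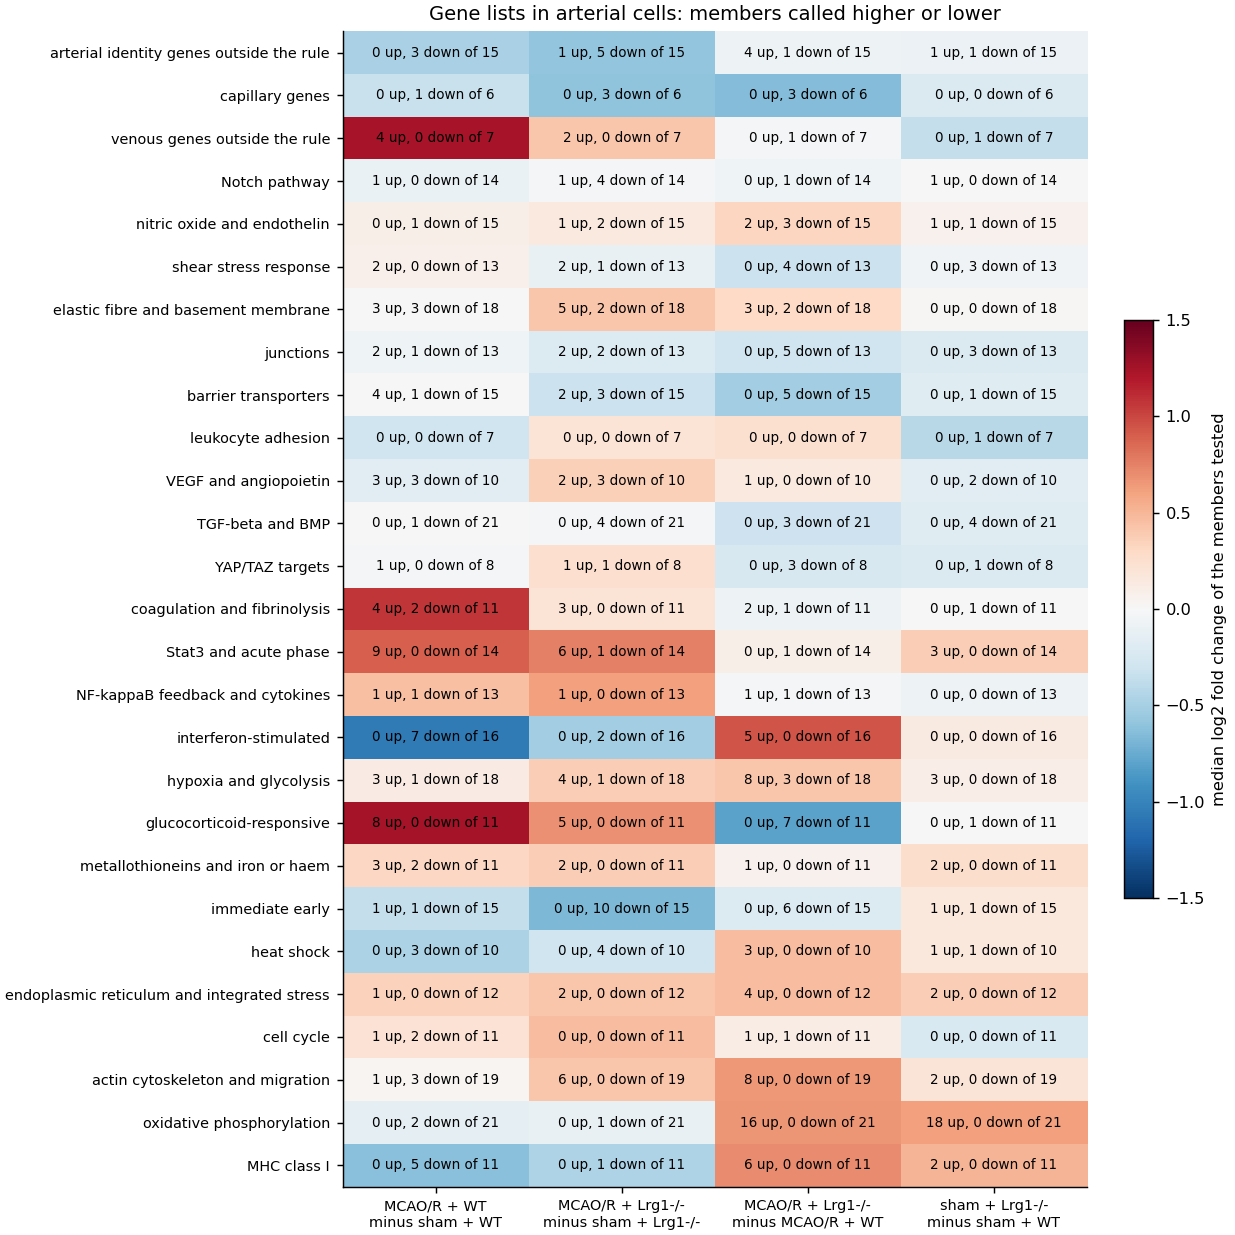
The 27 gene lists in arterial cells across 4 comparisons, with colour for the median log2 fold change of the members tested and numbers for the members that passed higher (up) or lower (down). Glucocorticoid-responsive genes are 8 up of 11 after MCAO/R in WT and 7 down of 11 in Lrg1-/- against WT after MCAO/R, and oxidative phosphorylation genes are 16 and 18 up of 21 in the 2 genotype comparisons.

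The interaction asks whether the response to MCAO/R differed between genotypes. By edgeR's quasi-likelihood test 22 of 12572 genes passed (0.175%), 18 with a lower and 4 with a higher response (0.0318%) in Lrg1-/-, and the count ran from 12 to 80 when single libraries were left out. Net1 held 40.8, 37.6 and 51.8 CPM in sham + WT, 233 and 279.9 in MCAO/R + WT, 64.03, 59.6 and 39.6 in sham + Lrg1-/- and 64.4, 61.9 and 53.5 in MCAO/R + Lrg1-/-. It rose in WT (2.55, SE 0.17) and not in Lrg1-/- (0.09, adjusted p = 0.835), with an interaction of -2.46, SE 0.26 (adjusted p = 0.00201) that held in all 22 alternatives. Wnt5a (interaction -2.79, SE 0.35, adjusted p = 0.00699) lost its call with cells thinned to 1000 UMIs. Its level went from 18.9, 15.9 and 19.99 to 176 and 255 CPM in WT and from 18.4, 21.1 and 31.00 to 24.98, 43.4 and 38.8 CPM in Lrg1-/-. Sema5a (interaction -2.93, SE 0.40, adjusted p = 0.00788) lost its call in 4 of 22 alternatives, among them leaving out sham + Lrg1-/- replicate 1 or 2.

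Selenop, the plasma selenium carrier, was chosen for mention after its values were seen, as were the next genes. It held 1001, 950.02 and 1015 CPM in sham + WT, 3686 and 3999.9 in MCAO/R + WT, 1288, 1623 and 1369 in sham + Lrg1-/- and 1515, 1535 and 1355 in MCAO/R + Lrg1-/- (interaction -1.92, SE 0.17, adjusted p = 0.000821). Xanthine dehydrogenase, Xdh, held 74.4, 74.8 and 78.3 CPM in sham + WT, 441 and 439.8 in MCAO/R + WT, 106, 103 and 99.9 in sham + Lrg1-/- and 181, 159 and 82.9 in MCAO/R + Lrg1-/- (interaction -2.07, SE 0.30), and the thrombin inhibitor Serpine2 31.2, 27.99 and 23.9 CPM in sham + WT, 100.2 and 122 in MCAO/R + WT, 29.97, 42.9 and 29.3 in sham + Lrg1-/- and 27.9, 33.4 and 38.8 in MCAO/R + Lrg1-/- (interaction -2.08, SE 0.27). For each of the 3 genes both MCAO/R + WT libraries lay above all other libraries, and Serpine2 was higher still in microglia-gated cells (172 CPM in MCAO/R + WT). The lipid metabolism genes Acacb (-1.83) and Pnpla2 (-1.36) and the mitochondrial carrier Ucp2 (-1.67) were on the same side. On the other side, Myct1 and Cthrc1 fell in both genotypes, but less in Lrg1-/-. Myct1 held 81.9, 82.9 and 79.4 CPM in sham + WT, 17.6 and 21.1 in MCAO/R + WT, 85.8, 80.7 and 94.7 in sham + Lrg1-/- and 50.9, 59.8 and 56.7 in MCAO/R + Lrg1-/- (interaction 1.46, SE 0.19, adjusted p = 0.00699), Cthrc1 had an interaction of 1.35, SE 0.19 (adjusted p = 0.0103), and both lost their call in 5 alternatives. Cyclin D1, Ccnd1 (1.48, SE 0.26, adjusted p = 0.0479), lost its call in 14.

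Arterial and capillary cells of the same mice were set side by side to see which changes after MCAO/R in WT differed between them. Of 14466 genes 559 had a higher (more positive) change in arterial cells (3.86%) and 222 a lower one (1.53%), 5.4% in all, with a median of 0.01. This count was 163 when both classes had equal cell numbers and 141 in cells with no UMI of the 8 other-cell markers. The last set also held fewer cells, such as 156 of the 308 arterial cells of sham + WT replicate 1, and 11919 genes were tested. Purity and cell number were therefore not separated. Leaving out MCAO/R + WT replicate 1 gave 336 and leaving out sham + WT replicate 3 gave 357. Choroid plexus genes moved with it, 4 of 7 with a higher change in arterial cells. In the capillary cells themselves 5 of 8 oligodendrocyte genes (median 1.34) and 2 of 6 microglia markers (median 1.05) rose after MCAO/R, beside 8.85% of all genes called higher and 9.18% lower there, and in the difference between the classes Mal was higher and Csf1r lower in arterial cells. Their part in the differences was not tested. The markers that sort cells into the classes changed after MCAO/R as well. Gkn3 was detected in 73.6% of arterial cells in sham + WT and 18.4% in MCAO/R + WT. Cells with exactly 2 markers made up 40.5% and 59.9%, and within libraries Car4 rose from cells with 2 markers to 1 to none in 8 of 11. The part of this sorting in the differences was not tested, and the class fits were not repeated in cells with at least 3 markers. Capillary cells also held fewer UMIs at the median than arterial cells in every library, and the class fits did not hold depth equal.

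Sema5a and Wnt5a rose more in arterial cells under each alternative. Sema5a went from 8.53, 9.21 and 7.75 to 103 and 138 CPM in arterial cells and from 13.1, 16.1 and 16.8 to 29.6 and 50.4 CPM in capillary cells, a difference of 2.495, SE 0.22, adjusted p = 4.07e-05. Wnt5a went from 18.9, 15.9 and 19.99 to 176 and 255 CPM against 21.7, 22.9 and 22.2 to 58.7 and 74.6 CPM (1.95, SE 0.24, adjusted p = 0.000403). After sham both genes were lower in arterial cells of all 3 libraries, and after MCAO/R both were higher in arterial cells. Igfbp4 went from 14.4, 18.8 and 21.8 to 296 and 228 CPM against 15.8, 11.4 and 11.6 to 38.8 and 12.1 CPM (2.997, SE 0.47, adjusted p = 0.00175), and its call was lost in cells with no UMI of other-cell markers.

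Stmn2 fell in arterial cells to near the capillary level, from 241, 229 and 222 to 39.03 and 68.4 CPM, while capillary cells went from 21.6, 21.99 and 39.2 to 15.8 and 47.5 CPM (-2.200, SE 0.37, adjusted p = 0.00258). With equal cell numbers this call was lost. Plcg2 (-2.26, SE 0.45, adjusted p = 0.00784) lost its call with equal cell numbers or without MCAO/R + WT replicate 1, while its level was higher in microglia-gated cells, and Htra1 (-2.12, SE 0.14, adjusted p = 3.19e-06) was -0.46 in cells with no other-cell marker. Alpl and Tgfb2, whose levels were higher in arterial cells at both times, fell in both classes (arterial -4.08 and -2.16, capillary -4.55 and -1.88), and their differences of change did not pass (0.503, SE 0.38, adjusted p = 0.57 for Alpl and -0.25, SE 0.18, adjusted p = 0.549 for Tgfb2).

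Barrier transporters had a more positive change in arterial than in capillary cells. Of 15 barrier transporters 14 had a more positive change in arterial cells and none a more negative one (median difference 1.09), and in capillary cells alone 10 of the 15 fell (median -0.96) beside 1472 of all 16037 genes tested there (9.18%). The amino acid transporter Slc38a3 held 53.1, 54.9 and 66.3 CPM in sham + WT and 44.4 and 69.2 CPM in MCAO/R + WT arterial cells, a log2 fold change of -0.04, against -1.34 in capillary cells (difference 1.31, SE 0.13, adjusted p = 7.63e-05). Abcc4 rose in arterial cells (1.18) and stood at 0.01 in capillary cells (1.16, SE 0.11, adjusted p = 6.95e-05), and Slc16a1 stood at -0.11 and -1.21 (1.09, SE 0.18, adjusted p = 0.00281). With equal cell numbers 6 of the 15 passed, and in cells with no other-cell marker 9. Neither alternative held the number of arterial markers in each cell fixed. All 6 genes of the capillary list, of which Spock2, Mfsd2a and Rgcc did not set the classes apart above, had a more positive change in arterial cells as well (median difference 1.16), 3 with equal cell numbers.

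Nitric oxide and endothelin genes (7 of 15), shear stress genes (7 of 14), junction genes (7 of 13), matrix genes (7 of 19) and VEGF genes (5 of 11) were on the same side with none opposite, but with equal cell numbers the counts were 2, 0, 2, 2 and 1, and with no other-cell marker 3, 0, 1, 1 and 0. Cav1 fell less in arterial than in capillary cells (-1.46 against -2.45, difference 0.997, SE 0.17, adjusted p = 0.00261), as did Ltbp4 (-1.32 against -3.21, difference 1.87, SE 0.19, adjusted p = 0.000131). The glucocorticoid list differed for Tsc22d3 alone of 11 genes, and none of 16 interferon-stimulated genes differed by edgeR's quasi-likelihood test, with medians of -0.06 and -0.21. In capillary cells themselves the first list was 9 of 11 higher and the second 6 of 16 lower.

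**Figure D5:**
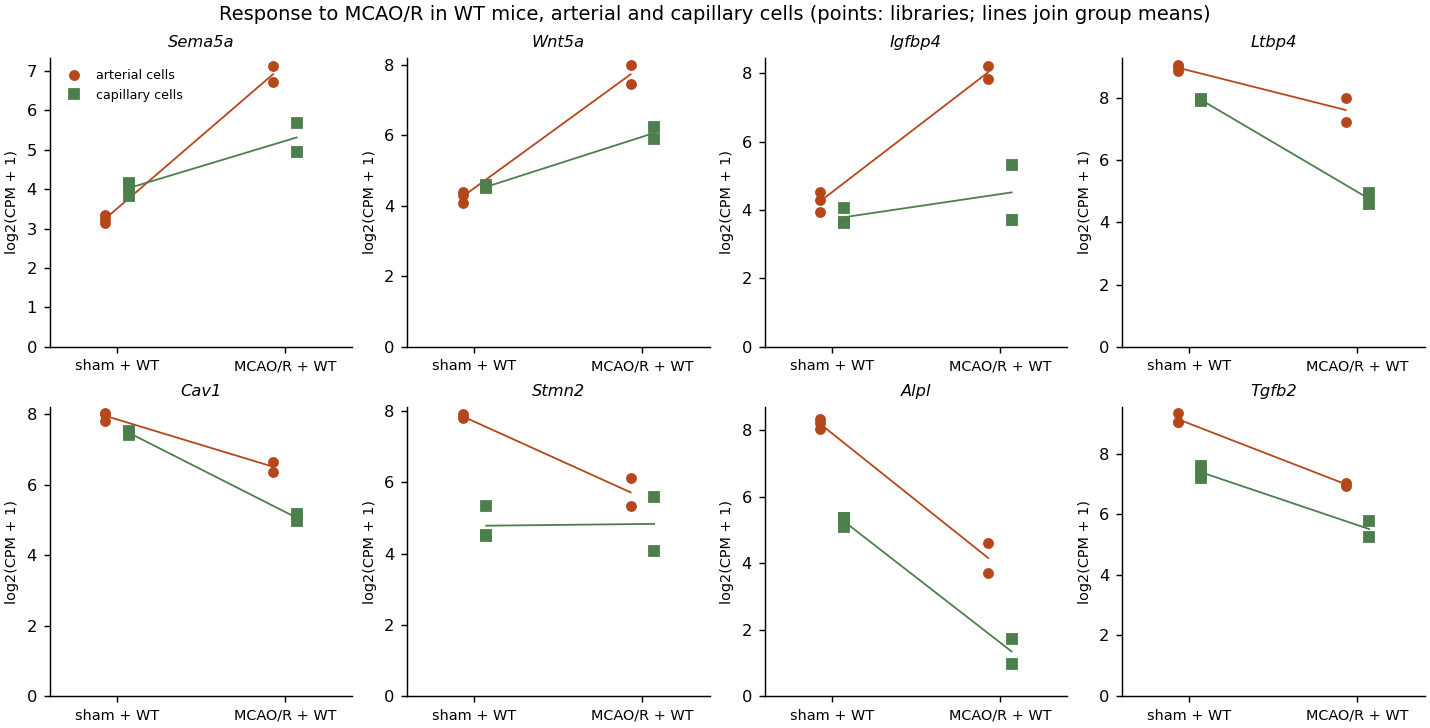
Levels of 8 genes as log2(TMM-scaled CPM + 1) in arterial and capillary cells of WT mice after sham (3 libraries) and MCAO/R (2 libraries), with 1 point per library and lines joining group means. Sema5a, Wnt5a and Igfbp4 part between the classes after MCAO/R, Stmn2 converges, and Alpl and Tgfb2 fall in parallel.

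The genotype difference after MCAO/R passed as different between the classes for 73 genes with a higher (0.505%) and 79 with a lower value (0.546%) in arterial cells (1.05% of 14466), and for 12 genes in cells with no other-cell marker. By edgeR's quasi-likelihood test 1977 genes had an unadjusted p under 0.05, so genes that did not pass are not shown to be alike. The balance turned to 28 higher and 7 lower with equal cell numbers, to 132 and 67 without sham + WT replicate 1 and to 65 and 35 without sham + WT replicate 3. In capillary cells 4 of 8 oligodendrocyte and 2 of 5 astrocyte genes were lower in Lrg1-/- after MCAO/R, and 2 of 6 neuroblast genes were lower and 1 higher. All 7 choroid plexus, all 5 haemoglobin and 4 of 6 neutrophil genes were higher, beside 2076 of 16037 genes called higher and 1807 lower. Their part in the differences between classes was not tested. The tropomodulin Tmod2 (difference 2.05), the tetraspanin Tspan2 (1.79) and Phactr3 (1.78) were the largest on one side and Ecrg4 (-2.48), the homeobox gene Msx1 (-2.40) and Chchd10 (-1.74) on the other, in log2, and all 6 lost their call in cells with no other-cell marker. Collagen IV genes Col4a1 and Col4a2, Ltbp4 and Lama5 were lower by this measure (4 of 19 matrix genes, none higher), as were Procr, Plat and Anxa2 of 12 coagulation genes. With equal cell numbers none of either list passed by edgeR's quasi-likelihood test, and in cells with no other-cell marker none of the matrix genes and 1 coagulation gene did. Against venous cells, which numbered 21, 11 and 15 in sham + WT and 283 and 100 in MCAO/R + WT, the sham arm was the 1 library with at least 20 venous cells, and its spread was assumed to be that of the other groups. There edgeR's quasi-likelihood test called 0% of 12401 genes, 1418 genes had an unadjusted p under 0.05, DESeq2 called 52, and 130 genes passed without MCAO/R + WT replicate 2, which left 1 venous library in each WT arm.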

How the data were processed

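The authors aligned 10x Genomics droplet reads to mm10 with STAR inside Cell Ranger (7.0.1 by the matrix headers) and deposited a matrix of raw UMI counts for each of 11 libraries. Cells were selected as described above, and no doublet caller was run. UMIs of the arterial cells were summed per mouse and tested with edgeR 4.0.16 (R 4.3.3) by the quasi-likelihood test with TMM scaling, filterByExpr and all 4 groups in 1 fit, with Benjamini-Hochberg adjustment over all genes tested. A library needed 20 cells. MCAO/R + Lrg1-/- replicate 1 had 17 cells with at least 3 arterial markers and was left out of that alternative. Class differences were fitted with the mouse as a block. Samples were grouped by their labels, and p-values cover the spread between mice. Intervals and floors cover counting error only. The members and the 27 gene lists, with 10 lists of other cells, were chosen with earlier results of these data known. Named were the 10 called genes with the largest change each way (3 for the other contrasts) with at least 50 CPM in the higher group, no overlap between groups (not asked of interactions), and no tracer, Gm, Rik or ribosomal gene, besides list members. Alternatives included DESeq2 1.42.0, thinning to 1000 UMIs, stricter cells and leaving out each library. On simulated counts for MCAO/R + WT against sham + WT, 100 genes were changed by 1 and 100 by 2 on the log2 scale. The fit called 83.0% and 99.0% of them among 12166 genes tested. For the difference between arterial and capillary cells it called 34.0% and 92.0% among 12549 genes. The changed genes were drawn from those of at least 20 CPM, so these rates do not cover lower genes. The simulated classes shared no mouse effect, unlike the paired data. Some members of the venous and interferon lists count in their totals but are not reported here by name.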

Additional observations from a re-analysis of the deposited data

Results flagged for a closer look

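The response to MCAO/R differed between genotypes for 22 genes by the interaction term, and these 6 were the largest of each direction at 50 CPM or more. The difference (Lrg1-/- minus WT, log2) was -2.93 for Sema5a, -2.79 for Wnt5a and -2.46 for Net1, all of which rose in WT arterial cells and did not pass in Lrg1-/- arterial cells. It was 1.48 for Ccnd1, 1.46 for Myct1 and 1.35 for Cthrc1, which fell in WT arterial cells. Net1 held its call in all 22 alternatives, while Wnt5a lost it in 1, Sema5a in 4, Myct1 and Cthrc1 in 5 each and Ccnd1 in 14.

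The response to MCAO/R in WT differed between arterial and capillary cells of the same mice, with the largest differences (arterial minus capillary, log2) at 2.997 for Igfbp4, 2.50 for Sema5a and 1.95 for Wnt5a on one side and -2.26 for Plcg2, -2.20 for Stmn2 and -2.12 for Htra1 on the other. Sema5a and Wnt5a appear in both sets, and both comparisons use the arterial cells of the same 5 WT libraries. In this comparison their calls held in all alternatives. Igfbp4 and Htra1 lost theirs in cells with no UMI of the other-cell markers, and Stmn2 with equal cell numbers. Plcg2 lost its call with equal cell numbers and without MCAO/R + WT replicate 1.

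The genotype difference after MCAO/R differed between the classes by 2.05 for Tmod2, 1.79 for Tspan2 and 1.78 for Phactr3, and by -2.48 for Ecrg4, -2.40 for Msx1 and -1.74 for Chchd10. None of these 6 calls held in cells with no UMI of the 8 other-cell markers.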

How the results depend on the processing

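The 1206 genes called after MCAO/R in WT were 621 with a replicate block and 439 with cells thinned to 1000 UMIs, and 507 to 1484 with 1 library left out (without MCAO/R + WT replicate 1 and MCAO/R + Lrg1-/- replicate 5). The 2138 between genotypes after MCAO/R were 1199 with the block, 1281 in cells with no other-cell marker, 674 thinned and 1007 to 2220 with 1 library left out (MCAO/R + WT replicate 2 and MCAO/R + Lrg1-/- replicate 1). The 887 of Lrg1-/- mice were 1572 with no filter on low counts, 515 with the block, 256 thinned and 253 to 1504 (sham + Lrg1-/- replicate 2 and MCAO/R + Lrg1-/- replicate 1). The 1423 after sham were 467 with the block, 583 with no other-cell marker, 263 thinned, 814 without the top 6% of UMIs and 779 to 1727 (sham + WT replicate 2 and MCAO/R + Lrg1-/- replicate 1). The 22 interactions were 141 by DESeq2, 409 with no filter, 6 with the block, 40 in cells with at least 3 arterial markers, 4 thinned and 12 to 80 (sham + Lrg1-/- replicate 1 and MCAO/R + Lrg1-/- replicate 1). Thinning and the sets with fewer cells leave fewer counts by construction, and the cause of the shifts was not tested.

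The 781 differences in response between arterial and capillary cells were 1330 with no filter, 163 with equal cell numbers, 141 with no other-cell marker and 336 to 822 with 1 library left out (MCAO/R + WT replicate 1 and sham + Lrg1-/- replicate 5), and the 152 in genotype difference were 862, 35, 12 and 52 to 212 (MCAO/R + Lrg1-/- replicate 1 and MCAO/R + WT replicate 1). In cells with no other-cell marker, Tspan2 and Phactr3 turned to -0.87 and -0.40 in the latter. Against venous cells, 1 sham + WT library reached 20 venous cells. The 0 calls there were 52 by DESeq2, 331 with no filter, 49 with at least 10 cells (chosen after seeing the data) and 0 to 130 with 1 library left out, 8 of them without MCAO/R + WT replicate 1. That comparison could not be fitted without sham + WT replicate 1 or with no other-cell marker.

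The share of arterial cells, in the order of libraries used above, was 7.34, 8.66, 8.77, 3.25, 4.34, 7.95, 10.7, 5.35, 4.81, 4.10 and 4.60% with cells thinned to 2000 UMIs and 7.02, 7.95, 10.5, 3.79, 4.05, 9.29, 11.4, 6.99, 4.05, 3.25 and 3.04% with at least 3 markers.

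A check of replicate numbers showed no pairing of the samples: 1 of 13 same-number pairs had a correlation of deviations over 0.1 (median -0.0799, other pairs 0.0330, 6939 genes), and 1 of 10 libraries correlated best with its own number. The check is limited, since deviations were taken from group means. The 2 MCAO/R + WT libraries thus mirror each other, and the pairs are not independent. The block left 52 of 58 named-gene values on their side of the threshold. Over all alternatives with every library, 642 of 683 named-gene values kept direction and call, 39 lost the call and 2 turned, and with 1 library left out 724 of 770 kept both and 46 lost the call. Scaling by DESeq2's factors moved the median gene by at most 0.03.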

Other observations

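Of 11 metallothionein and iron genes tested 3 rose after MCAO/R in WT arterial cells, Mt1, Mt2 and ferritin heavy chain Fth1, and 2 fell, the iron exporter Slc40a1 and the zinc transporter Slc39a10 (median 0.31, with 4.58% of all genes called higher and 5.01% lower). Mt2 held 39.99, 22.3 and 33.05 CPM in sham + WT and 562 and 174 in MCAO/R + WT (log2 fold change 3.52 with SE 0.48 and adjusted p = 0.000428) and Slc40a1 214, 208 and 245 CPM in sham + WT and 99.1 and 99.4 in MCAO/R + WT (log2 fold change -1.16 with SE 0.29 and adjusted p = 0.0228). In Lrg1-/- mice Mt2 and Fth1 rose and none fell.

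Actin and migration genes were higher in Lrg1-/- than in WT arterial cells after MCAO/R for 8 of 19 (median 0.65, with 8.53% of all genes called higher), with none lower, and for 5 without MCAO/R + WT replicate 2. Vimentin, Vim, held 1251 and 1109 CPM in MCAO/R + WT and 2019, 2131 and 1389 in MCAO/R + Lrg1-/- (log2 fold change 0.65 with SE 0.20 and adjusted p = 0.0413), and the calcium-binding S100a6 92.4 and 44.3 CPM in MCAO/R + WT and 133, 264 and 371 in MCAO/R + Lrg1-/- (log2 fold change 1.89 with SE 0.36 and adjusted p = 0.00416). Glycolysis enzymes Pgk1, Ldha, Eno1, Pkm, Gapdh and Tpi1, with Ankrd37 and Hif1a, were higher and Slc2a1, Ndrg1 and Epas1 lower among 18 hypoxia and glycolysis genes, and 2 were higher without MCAO/R + WT replicate 2. Ldha held 242 and 189 CPM in MCAO/R + WT and 327, 441 and 277 in MCAO/R + Lrg1-/- (log2 fold change 0.71 with SE 0.19 and adjusted p = 0.0229).

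Of 11 cell cycle genes, cyclins Ccnd1 and Ccnd2 fell and the inhibitor Cdkn1a rose after MCAO/R in WT, beside 5.01% of all genes called lower and 4.58% higher. Ccnd2 held 112, 104 and 139 CPM in sham + WT and 48.3 and 81.99 in MCAO/R + WT (log2 fold change -0.88 with SE 0.23 and adjusted p = 0.0319). None of the 11 passed after MCAO/R in Lrg1-/- mice by edgeR's quasi-likelihood test.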
